A study of Mus musculus with 2 samples.

Results

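The 42 genes described here encode the enzymes that remove superoxide and peroxides, the thioredoxin and glutathione systems that recharge them, and the Nrf2 pathway with its inducible enzymes. They were chosen by gene name from these families, and each symbol was matched to an Ensembl gene in the deposited tables. All 42 were found among the 43346 genes listed there. The study measured total RNA in 2 libraries, biological replicates 1 and 2, each made from 100 hematopoietic stem cells (HSC) of male C57BL/6J mice aged 5 to 6 weeks. Both libraries belong to the same group, with no treatment, genotype or second cell type to compare, so every difference below is a difference between 2 replicates and carries no test. The labels name the same donor entry and separate biosamples for the replicates, and they do not say whether separate animals were used, so the spread between the libraries may be technical.

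Cells turn superoxide, a by-product of respiration and of NADPH oxidases, into hydrogen peroxide with superoxide dismutases. Catalase, glutathione peroxidases and peroxiredoxins then reduce the peroxide, and the last of these are recharged by thioredoxin and thioredoxin reductase at the expense of NADPH. The transcription factor Nrf2, the product of Nfe2l2, is held at a low level by Keap1, and when released it binds antioxidant response elements beside genes of glutathione synthesis and thiol reduction. Blood stem cells are known for a low content of reactive oxygen, and loss of the regulators that keep it low is known to impair their maintenance.

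The core of the antioxidant response element, TGACNNNGC, was searched on both strands of the RefSeq promoter windows of build GRCm38.p6, each 300 bases long with 250 bases before and 50 after the start of transcription. A window was at hand for 37 of the 42 genes, and Hmox1, Prdx6, Sod3, Gsr and Gclc had none. The core was present in 8 of the 37 (21.6%), namely Gclm, Mgst1, Nfe2l2, Prdx1, Sesn2, Sod1, Srxn1 and Txnrd1. Over all 27025 genes with a window, 14.0% held it, as did 17.2% of the 7830 protein-coding genes with a window that were detected in both libraries. The sites of Gclm, Prdx1, Txnrd1 and Nfe2l2 are shown because their genes stand at different points of the pathway. These are the rate-limiting glutathione step, a peroxidase, a thioredoxin reductase and the transcription factor itself. The capitals mark the 9 bases that match, written 5′ to 3′ on the strand of the gene, where GCNNNGTCA is the same core on the opposite strand.
Gclm (chr3:122245393-122245461, + strand): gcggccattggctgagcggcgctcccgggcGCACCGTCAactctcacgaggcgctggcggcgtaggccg
Prdx1 (chr4:116685436-116685504, + strand): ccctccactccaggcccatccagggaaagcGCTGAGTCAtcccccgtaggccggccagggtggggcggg
Txnrd1 (chr10:82859084-82859152, + strand): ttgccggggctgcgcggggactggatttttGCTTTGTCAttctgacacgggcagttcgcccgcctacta
Nfe2l2 (chr2:75704865-75704913, - strand): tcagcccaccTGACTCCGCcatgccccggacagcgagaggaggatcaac

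The Gclm and Prdx1 sites lay at nearly the same distance from their starts, 134 to 126 bases and 133 to 125 bases upstream. The Txnrd1 site was nearer, 92 to 84 bases upstream, and the Nfe2l2 site farther, 240 to 232 bases upstream. These distances are from the RefSeq start of each window. For Txnrd1 that start lies inside the annotated gene, which spans 82833951 to 82897712 on the + strand. None of the Gclm, Prdx1 and Txnrd1 stretches overlapped an annotated exon, whereas the Nfe2l2 stretch overlapped an exon of E030042O20Rik, a gene on the opposite strand. The core sat 56 to 48 bases upstream in both Sod1 and Mgst1, 36 to 28 bases upstream in Sesn2, and 29 to 37 bases after the start in Srxn1. In Mgst1, Sesn2 and Srxn1 the stretch around the core overlapped an annotated exon of the same gene. The genes with the core ranged in level from Sod1, at 103.88 and 90.65 TPM in replicates 1 and 2 (transcripts per fixed total of a library, corrected for gene length), to Mgst1, at 0 and 2.17 TPM. A match describes these letters and no binding was measured here, and the absence of a match says only that the letters are not in the window.

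Replicate 1 held 48313341 estimated counts and replicate 2 held 28947093, of which 68124 and 34790 fell on the 42 genes. Protein-coding genes of the nucleus made up 30.0% and 26.5% of all TPM, and the 42 genes made up 0.561% and 0.573% of that coding part. All 8 HSC markers (Hlf, Kit, Meis1, Ly6a, Mecom, Procr, Mllt3 and Gata2) were detected in both libraries, with a summed level of 506 and 371 TPM. Markers of other blood cells were present too. The 12 erythroid markers were all detected in both, at 2601 and 2360 TPM, of which Car1 alone gave 1333 and 1071 TPM. The 6 early myeloid markers were also all detected in both, at 558 and 1578 TPM. Of 10 mature neutrophil markers, 1 was detected in replicate 1, where their sum was 5.11 TPM with 5 at 0, and 7 in replicate 2, where it was 343 TPM with 2 at 0. Macrophage markers, 2 of 8 detected in each library, summed to 6.63 and 9.32 TPM, with C1qa and C1qb at 0 in both. B and plasma cell markers summed to 108 and 153 TPM, of which Jchain alone gave 99.4 and 129 TPM. Of these 7 markers, 3 were detected in replicate 1, where Cd79b and Pax5 were at 0, and 6 in replicate 2. In such pooled RNA, fewer cells of a type and less RNA per cell cannot be told apart.

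Most of the antioxidant genes were transcribed at a moderate level in these libraries. Detection required at least 1 TPM and at least 10 estimated counts. By that measure 36 of the 42 genes were detected in both libraries, set against 45.5% of the 21461 nuclear protein-coding genes. Replicate 1 detected 36 and replicate 2 detected 38. The 4 genes below the threshold in both were Sod3, Gpx7, Gpx8 and Hmox1, and Gpx3 and Mgst1 were detected in replicate 2 alone. The libraries' median levels were 19.1 and 21.1 TPM (20.1 ± 1.38, SD, n = 2), against 0.19 and 1.02 TPM for all nuclear protein-coding genes. A mean of at least 10 TPM was reached by 29 genes, and a mean of at least 100 TPM by 2, Gpx1 and Prdx2.

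**Figure D1:**
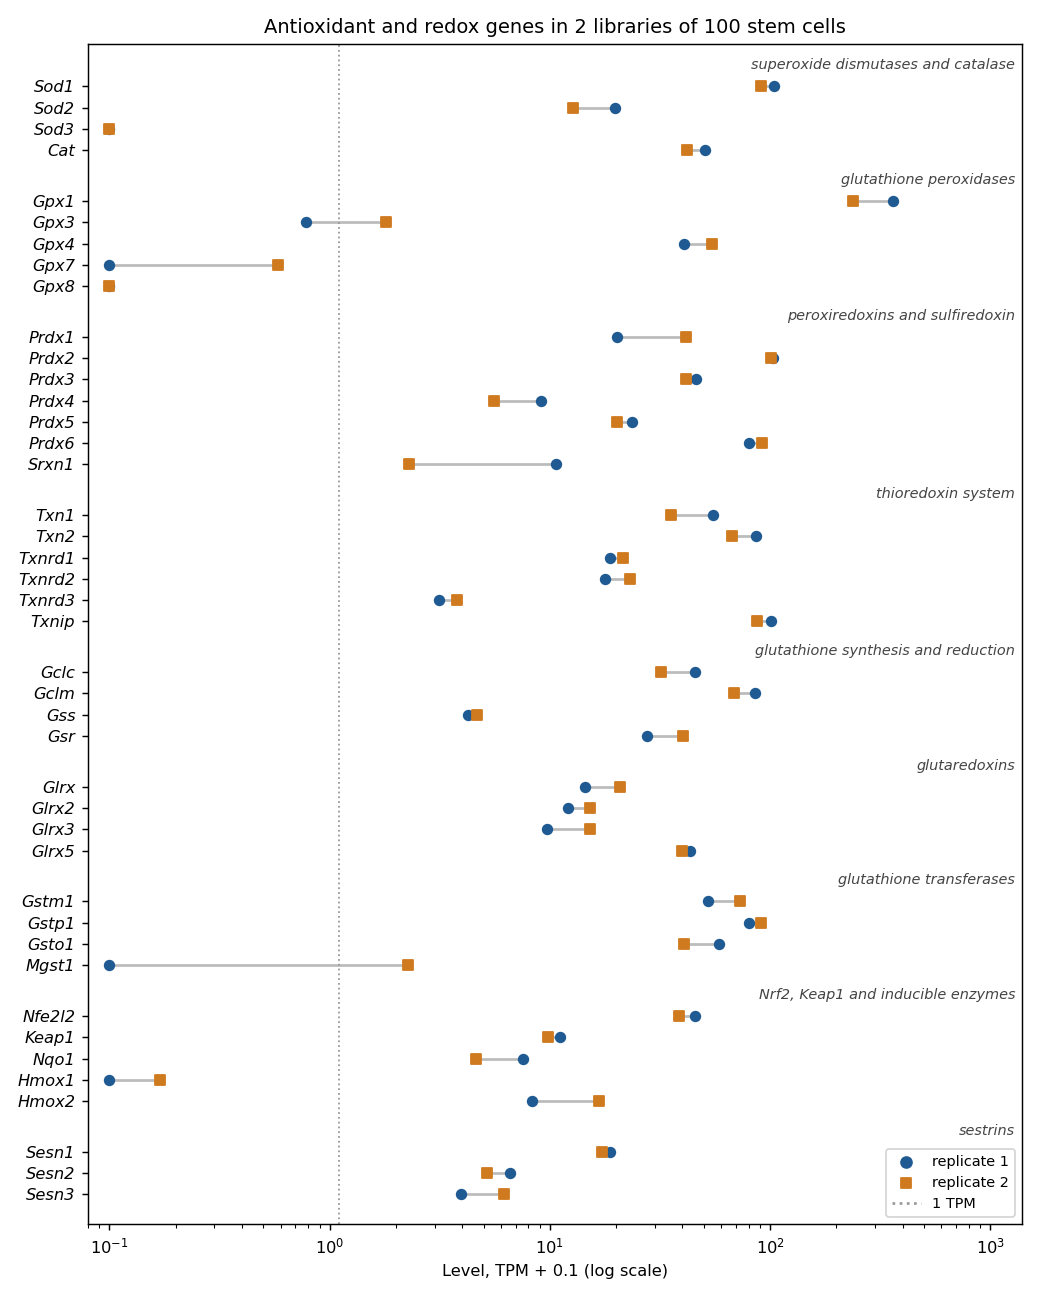
Level of each of the 42 genes in replicate 1 and replicate 2 as TPM + 0.1 on a log axis, arranged by functional group, with a gene listed at 0 drawn at 0.1. Gpx1 is the highest in both libraries, at 360.68 and 239.05 TPM, and Sod3 and Gpx8 lie at 0 in both.

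Few of these genes differed by over 2-fold between the replicates. On the log2(TPM + 1) scale, among the 38 genes detected in either library, 1 was over 2-fold higher in replicate 1 (Srxn1) and 2 were over 2-fold higher in replicate 2 (Prdx1 and Mgst1). Over all 12862 genes detected in either library the shares were 13.1% and 14.0%. At a mean of 10 TPM or more, 1 of 29 genes was over 2-fold apart, against 14.9% of all such genes. The median size of the difference was 0.36 over the 38 genes and 0.53 over all genes detected in either library. In TPM, 21 genes were higher in replicate 1 and 17 in replicate 2, but the order turned to 17 and 21 when TPM was rescaled to protein-coding genes, which moved the median difference of all genes from 0.10 to -0.07. Across the alternatives of unit, scaling, pseudocount and transcript class, 14 genes were higher in replicate 1 in each of those computed for them, 13 were higher in replicate 2 in each, and 11 changed sign. The authors' deposited bounds on TPM, for which no confidence level is given here, did not overlap for 30 of the 38 genes, 16 of them higher in replicate 1 and 14 in replicate 2. The same was true of 70.0% of all genes detected in either library.

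**Figure D2:**
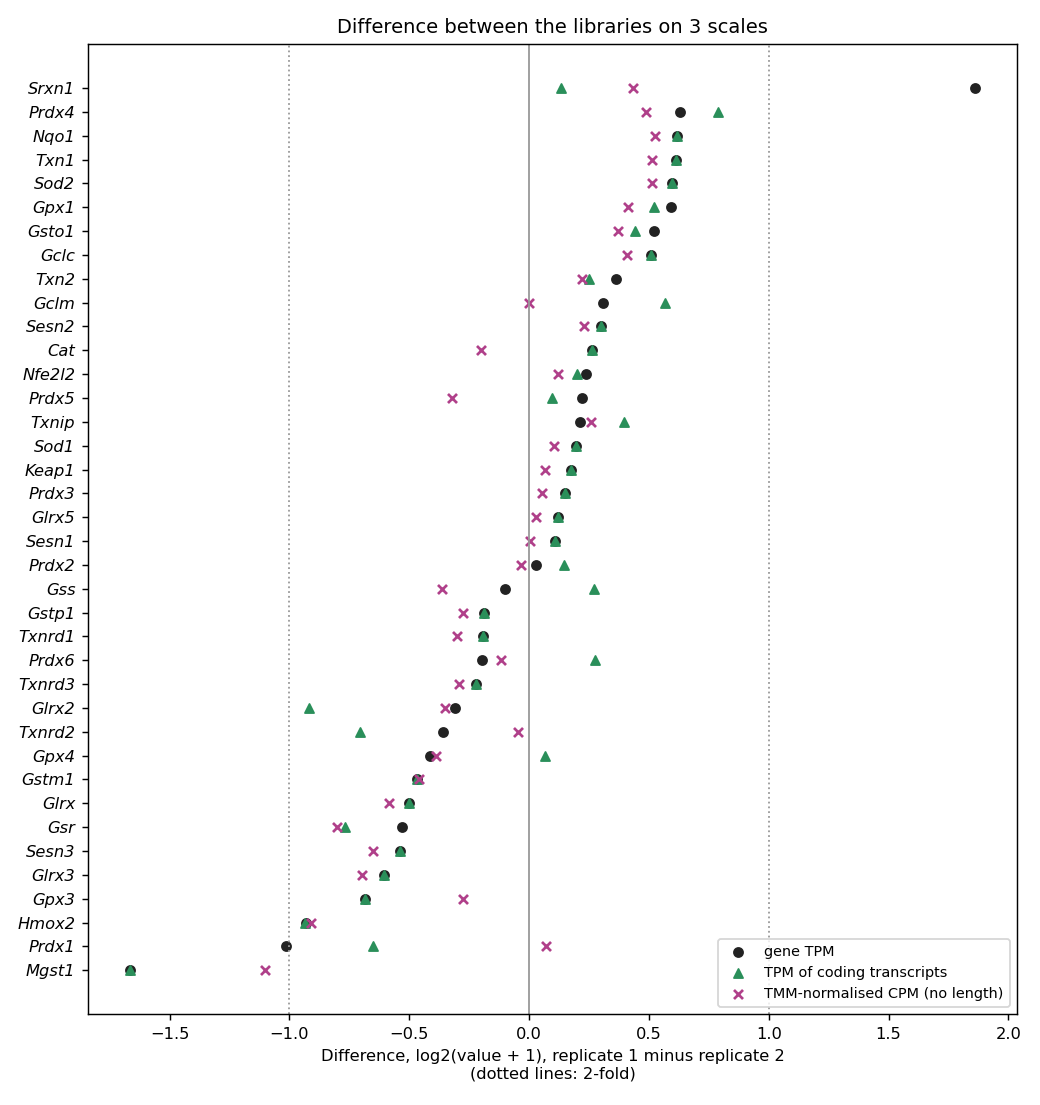
Difference of each of the 38 detected genes between the libraries, log2(value + 1) in replicate 1 minus replicate 2, with dots for gene TPM, triangles for TPM of coding transcripts alone, crosses for TMM-scaled CPM and dotted lines at a 2-fold difference. In gene TPM, Srxn1 lies beyond the line toward replicate 1 and Mgst1 and Prdx1 beyond the line toward replicate 2, and on the other scales Mgst1 alone lies beyond a line.

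The dismutases and catalase were led by Sod1, the copper and zinc enzyme of the cytosol. Sod1 reached 103.88 TPM on 1745 counts in replicate 1 and 90.65 TPM on 849 counts in replicate 2. Sod2, the manganese enzyme of the mitochondrial matrix, stood at 19.59 and 12.63 TPM. Both were higher in replicate 1 under every alternative tried, and the ratio of Sod1 to Sod2 was 5.30-fold and 7.18-fold, a mean log2 of 2.62 ± 0.31 (SD, n = 2). Cat, the peroxisomal catalase, stood at 50.45 and 41.87 TPM, between them in both libraries, and its direction between the libraries turned when counts were scaled without gene length. Sod3, the extracellular dismutase, had no count in either library, which allows a level of up to 0.0271 TPM in replicate 1 and 0.0481 TPM in replicate 2 (3 counts at its effective length).

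Gpx1, the cytosolic glutathione peroxidase and a selenoprotein, was the most abundant of the 42 genes in both libraries. It lies on chromosome 9 from 108338903 to 108340343 (+ strand, GRCm38) and reached 360.68 TPM on 8482 counts in replicate 1 and 239.05 TPM on 3336 counts in replicate 2. Among nuclear protein-coding genes it ranked 71 and 97. Replicate 1 was the higher under every alternative tried, and the next most abundant genes were Sod1 in replicate 1, at 103.88 TPM, and Prdx2 in replicate 2, at 100.98 TPM. Gpx4, which reduces lipid hydroperoxides within membranes, stood at 40.53 and 54.36 TPM. Gpx1 made up 89.7% and 80.9% of the TPM of the 5 measured glutathione peroxidases, Gpx4 10.1% and 18.4%, and the ratio of Gpx1 to Gpx4 was 8.90-fold and 4.40-fold. Of the positions along the transcripts of Gpx4, 34.7% were shared as identical 50-base words with other genes, foremost the copy Gpx4-ps2, the highest such share among the 42 genes, and its value is uncertain to that extent.

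The other peroxidases of this family were near the limit of detection. Gpx3, the secreted plasma enzyme, stood at 0.68 TPM (32 counts) in replicate 1 and 1.70 TPM (26 counts) in replicate 2. Gpx7, of the endoplasmic reticulum, had 0 counts in replicate 1, which allows up to 0.136 TPM, and 10 counts at 0.48 TPM in replicate 2. Gpx8, of the same compartment, had 0 counts in both, which allows up to 0.105 and 0.187 TPM. The family therefore rested on Gpx1 and Gpx4 in both libraries.

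The peroxiredoxins, thiol peroxidases that react with peroxide at a reactive cysteine, were all detected in both libraries and summed to 282 and 301 TPM. Prdx2, the cytosolic form known for its abundance in red cells, led with 103.11 and 100.98 TPM. Its share of the family was 36.6% and 33.5%. Prdx6, the 1-cysteine form that also acts on phospholipids, followed with 79.96 and 91.68 TPM, or 28.4% and 30.4%. On coding transcripts alone Prdx2 still led, at 90.4 and 81.5 TPM, but Prdx6 fell to 46.7 and 38.5 TPM, near Prdx3 in replicate 1 and below it in replicate 2.

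Prdx3 and Prdx5 serve mitochondria, Prdx5 also peroxisomes and cytosol. Prdx3 stood at 45.98 and 41.29 TPM, and Prdx5 at 23.61 and 20.13 TPM. In TPM their ratio was among the steadiest measured, 1.95-fold and 2.05-fold in favour of Prdx3 (mean log2 1.00 ± 0.05, SD, n = 2). That steadiness rested on length, since counts were 2000 and 1010 for Prdx3 and 463 and 310 for Prdx5. The effective length assigned to Prdx5 was 611 bases in replicate 1 and 849 bases in replicate 2. Prdx4, the form of the endoplasmic reticulum, was the lowest of the family at 9.02 TPM (251 counts) and 5.48 TPM (86 counts), and it was higher in replicate 1 under every alternative tried.

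Prdx1, a cytosolic form close in sequence to Prdx2, had a difference between the libraries that depended on the unit. The gene lies on chromosome 4 from 116685544 to 116700822 (+ strand). Its level was 20.11 TPM in the first replicate and 41.62 TPM in the other, a log2 difference of -1.01. Its estimated counts were 1219 and 608, a ratio of 2.01 that lies near the ratio of 1.88 between the libraries' coding counts. Scaled for library size without gene length (CPM), by TMM or by DESeq2's size factors, the log2 difference was 0.070 or 0.055. The effective length assigned to the gene was 1890 bases in replicate 1 and 805 bases in replicate 2, a length that follows the estimated mixture of its transcripts. Prdx1 therefore took 7.14% of the family's TPM in replicate 1 and 13.8% in replicate 2, and lay below Prdx2 and Prdx6 in both.

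Srxn1, sulfiredoxin, restores peroxiredoxins whose cysteine has been over-oxidised. The gene lies on chromosome 2 from 152105516 to 152111376 (+ strand) and was measured at 10.61 TPM in replicate 1 against 2.20 TPM in replicate 2, a log2 difference of 1.86. It had 242 and 87 counts with effective lengths of 711 and 2178 bases. On CPM scaled by TMM the difference was 0.43. Restricted to its coding transcript, the level was 1.99 and 1.73 TPM, a log2 difference of 0.13.

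The thioredoxin system was complete at the RNA level. Txn1, the cytosolic thioredoxin, stood at 54.91 and 35.54 TPM, and Txn2, the mitochondrial form, at 86.57 and 67.16 TPM. Txn2 was the higher of the pair in both libraries, with Txn1 below it by 0.79 ± 0.18 on the log2 scale (SD, n = 2). Both thioredoxins were higher in replicate 1 under every alternative tried.

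The reductases that recharge them are selenoproteins. Txnrd1, of the cytosol, stood at 18.65 and 21.46 TPM, and Txnrd2, of mitochondria, at 17.76 and 23.08 TPM. The order of the pair in TPM differed between the libraries, with a mean log2 ratio of -0.02 ± 0.12 (SD, n = 2). Such closeness rested on length, since counts were 1971 and 1280 for Txnrd1 and 717 and 389 for Txnrd2. Effective lengths were 3295 and 3287 bases for Txnrd1 and 1258 and 929 bases for Txnrd2. Txnrd3, best known from testis, stood at 3.03 and 3.70 TPM and took 7.68% and 7.67% of the sum of the reductases. By sign, all 3 reductases were higher in replicate 2 under every alternative tried, the opposite of the thioredoxins. For Txnrd2 the log2 difference shrank from -0.36 in TPM to -0.05 on CPM scaled by TMM and -0.06 by DESeq2. The deposited TPM bounds of Txnrd3 overlapped between the libraries. Txnip, which binds thioredoxin and limits its activity, stood at 100.92 and 87.00 TPM, above both thioredoxins in both libraries. On coding transcripts alone the order turned, with Txnip at 65.1 and 49.2 TPM and Txn2 at 80.2 and 67.2 TPM.

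Glutathione is made by glutamate-cysteine ligase, formed by the catalytic subunit Gclc and the modifier subunit Gclm, and then by glutathione synthetase, Gss. Gclc stood at 45.65 and 31.83 TPM, and Gclm at 85.43 and 68.84 TPM. In TPM the modifier was the higher in both libraries, with the log2 ratio of Gclc to Gclm at -1.01 ± 0.15 (SD, n = 2). That order rested on length, since counts were 4834 and 1902 for Gclc and 3700 and 1942 for Gclm. Effective lengths were 3301 and 3293 bases for Gclc and 1350 and 1555 bases for Gclm. The longest Gclm transcript, of 4841 bases, stood at 13.6 and 15.2 TPM, and the rest fell on transcripts of 467 to 1002 bases. On coding transcripts alone Gclm stood at 80.94 and 54.25 TPM. Gss stood far lower, at 4.17 TPM (184 counts) and 4.55 TPM (132 counts). Gsr, the reductase that regenerates glutathione with NADPH, stood at 27.48 and 40.10 TPM and was higher in replicate 2 under every alternative tried, while Gclc was higher in replicate 1. The difference for Gclm changed sign with the scaling.

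Glutaredoxins use glutathione to reduce mixed disulfides or to carry iron-sulfur clusters. Glrx5, the mitochondrial cluster carrier that developing red cells need for heme synthesis, led with 43.42 and 39.81 TPM, which was 54.7% and 43.8% of the group. Glrx, the cytosolic dithiol form, stood at 14.33 and 20.68 TPM. Glrx2, of mitochondria, stood at 12.05 and 15.16 TPM, but at 2.23 and 5.10 TPM on coding transcripts alone, the lowest of the group in both libraries. Glrx3, a cytosolic form that handles iron, stood at 9.63 and 15.18 TPM. Glrx, Glrx2 and Glrx3 were higher in replicate 2 under every alternative tried, each by less than 2-fold in TPM, and Glrx5 changed sign. Glrx5 exceeded Glrx by 3.03-fold and 1.93-fold.

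The glutathione transferases, which couple glutathione to reactive compounds, held 3 genes at a high level. Gstp1 stood at 79.73 and 91.11 TPM, Gstm1 at 52.30 and 72.67 TPM, and Gsto1, the omega form that also reduces thiols, at 58.77 and 40.59 TPM. Gstp1 and Gstm1 were higher in replicate 2 and Gsto1 in replicate 1 under every alternative tried. The near copy Gstp2 shares sequence with Gstp1, of whose 50-base words 33.7% occur in other genes, but it was listed at 0.15 and 0 TPM.

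Mgst1, a transferase of microsomal and mitochondrial membranes, had 0 counts in replicate 1, which allows up to 0.132 TPM, and 31 counts at 2.17 TPM in replicate 2. The difference was in the same direction under every alternative tried. Mgst1 and Gpx3, the genes detected in replicate 2 alone, moved in the direction of the neutrophil and early myeloid markers, whose sums were 5.11 and 558 TPM in replicate 1 and 343 and 1578 TPM in replicate 2. For Gpx3 the counts were 32 and 26 and the effective lengths 1472 and 843 bases, so its TPM also followed the assigned length. On CPM scaled by TMM its log2 difference was -0.27. The part of those cells in the Mgst1 and Gpx3 differences was not tested.

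The gene of Nrf2 was measured above its adaptor and above the inducible enzymes Nqo1 and Hmox1 in both libraries. Nfe2l2 stood at 45.43 TPM (3297 counts) and 38.36 TPM (1588 counts), and Keap1, the adaptor that directs Nrf2 to degradation, at 11.07 and 9.70 TPM. Keap1 lay 4.10-fold and 3.95-fold below Nfe2l2, and this log2 ratio of -2.00 ± 0.04 (SD, n = 2) had the smallest spread of the 12 ratios computed. Bach1, a repressor at the same elements, stood at 6.12 and 9.61 TPM, also below Nfe2l2 in both libraries.

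Nqo1, a quinone reductase widely used as a readout of Nrf2, stood at 7.49 TPM (344 counts) and 4.53 TPM (117 counts), higher in replicate 1 under every alternative tried. Hmox1, the inducible heme oxygenase and another common readout, had 0 counts in replicate 1, which allows up to 0.111 TPM, and 2 counts at 0.07 TPM in replicate 2. Hmox2, the constitutive heme oxygenase, stood at 8.22 TPM (424 counts) and 16.60 TPM (442 counts), a log2 difference of -0.93, and it was higher in replicate 2 under every alternative tried. Hmox1 was thus below the detection threshold in both libraries and Hmox2 above it in both. Of the 8 markers of macrophages, cells that carry much Hmox1, 1 was detected in both libraries (Cd68, at 5.47 and 5.07 TPM). Cd163 was detected in replicate 1 alone, at 1.16 TPM (163 counts), and Vcam1 in replicate 2 alone, at 3.73 TPM (221 counts). C1qa and C1qb were at 0 in both. Other known Nrf2 targets among the 42 genes differed widely in level, with Srxn1 at 10.61 and 2.20 TPM and Gclm at 85.43 and 68.84 TPM.

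The sestrins, stress-induced proteins that restrain mTORC1 and aid peroxide defence, were the lowest group by median apart from the glutathione peroxidases. Sesn1 led with 18.57 and 17.16 TPM, 64.2% and 60.6% of the group. Sesn2 stood at 6.50 and 5.09 TPM, and Sesn3 at 3.87 and 6.07 TPM, so that their order differed between the libraries. Sesn2 was higher in replicate 1 and Sesn3 in replicate 2 under every alternative tried.

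The transcripts to which reads were assigned often differed between the libraries. Among the 19 genes detected in both at a mean of 10 TPM or more with more than 1 annotated transcript, the leading transcript differed for 7, namely Gpx1, Gpx4, Prdx1, Prdx5, Txnrd2, Txnip and Glrx2. Over all 4897 such genes the share was 47.6%. For Gclm and Prdx6 no transcript reached 50% in either library. A further 10 genes at this level have only 1 transcript in the tables.

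Prdx1 and Srxn1 show how this entered the gene values. For Prdx1, the transcript Prdx1-204 of 2294 bases held 83.0% of the gene's TPM in replicate 1 and 16.5% in replicate 2. The shorter Prdx1-201 of 636 bases held 17.0% and 42.6%, and Prdx1-206, a retained-intron transcript of 553 bases, 0% and 22.7%. For Srxn1, the non-coding Srxn1-202 of 375 bases held 81.2% in replicate 1 on 69.9 of 242 counts and 0% in replicate 2, and the coding Srxn1-201 of 2812 bases held 18.8% and 78.7%. Few counts on a short transcript thus carried most of the TPM of Srxn1 in replicate 1.

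**Figure D3:**
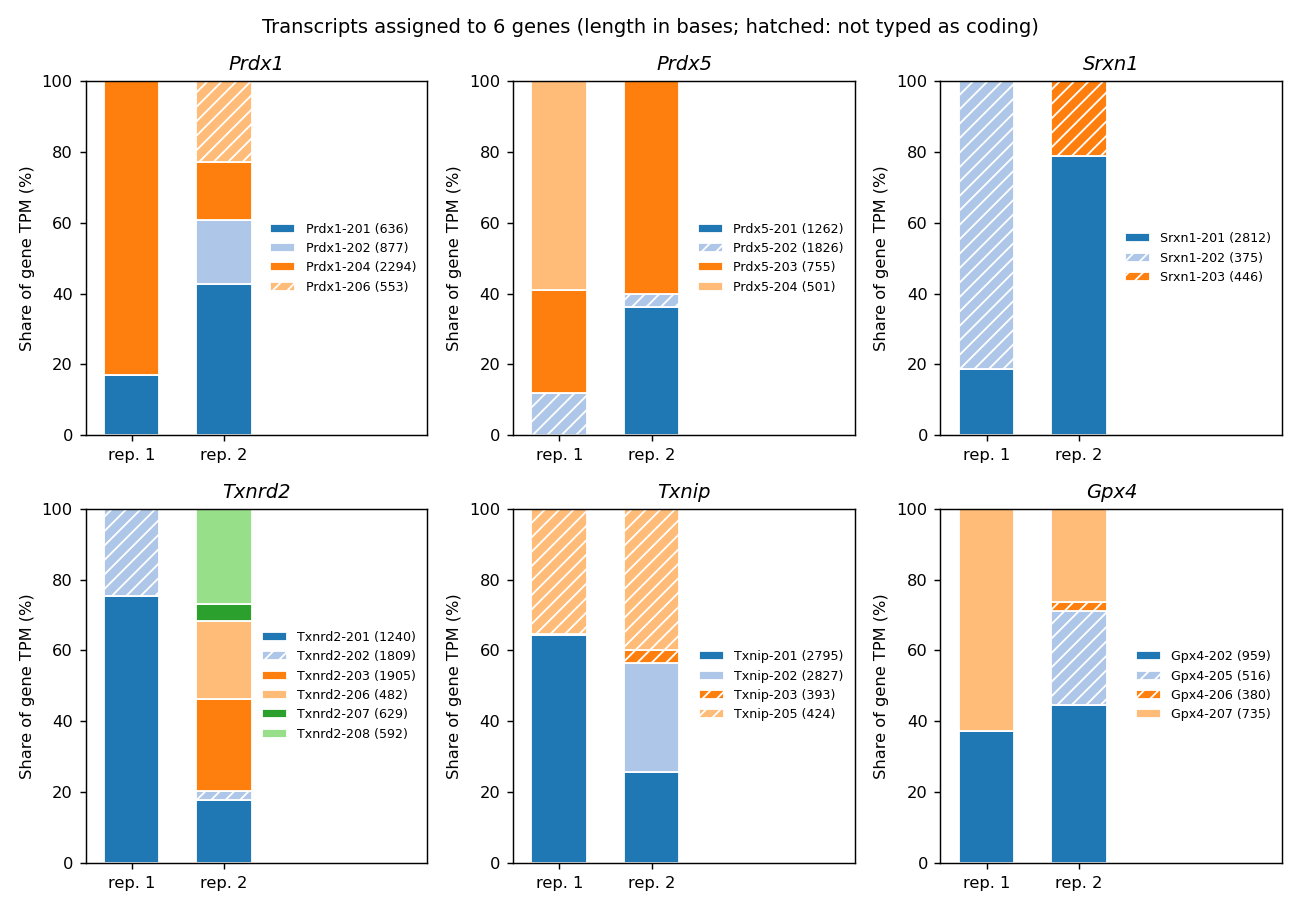
Share of gene TPM (%) on each annotated transcript in replicate 1 and replicate 2 for Prdx1, Prdx5, Srxn1, Txnrd2, Txnip and Gpx4, with transcript lengths in bases in the keys and hatching for transcripts not typed as coding. In Prdx1 the leading share passes from Prdx1-204 in replicate 1 (83.0%) to Prdx1-201 in replicate 2 (42.6%), and in Srxn1 from the hatched Srxn1-202 (81.2%) to the coding Srxn1-201 (78.7%).

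Other members kept their gene level while the leading transcript changed. Txnip-201 held 64.2% and 25.6% of its gene, the coding Txnip-202 held 0.32% and 31.0%, and the retained-intron Txnip-205 held 35.5% and 40.0%. Prdx5-204 held 58.9% and 0%, and Prdx5-203 held 29.1% and 60.0%. Nfe2l2 was stable, with Nfe2l2-201 at 91.2% and 93.8%. In 4 genes, Prdx6, Txnip, Gsr and Glrx2, transcripts annotated as coding held less than 75% of the TPM in both libraries. On coding transcripts alone Gsr stood at 14.5 and 25.4 TPM. With that restriction the genes over 2-fold apart were 0 higher in replicate 1 and 1 higher in replicate 2 (Mgst1).

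Reads of neighbouring or similar genes bear on some of these values. Exons of 8 genes overlap an exon of another gene on the opposite strand, and whether the counting used strand is not stated here, so reads of such a pair may not be told apart. Prdx5 overlaps Trmt112, at 161 and 77.0 TPM, which exceeded Prdx5 in both libraries. Prdx2 overlaps Junb, at 30.1 and 19.4 TPM. Gclm overlaps Gm6061 on the same strand, at 30.1 and 9.53 TPM. Sequence was unique at a word length of 50 bases for 27 of the 42 genes.

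Related pathways outside the 42 genes were measured with 11 lists. The phagocyte NADPH oxidase, a source of superoxide, had 7 of 13 genes detected in both libraries, with Rac2 at 55.2 and 64.1 TPM and Ncf1 at 11.9 and 27.4 TPM. Among its 8 genes detected in either library, 2 were over 2-fold higher in replicate 1 and 1 in replicate 2. Over all genes detected in either library the shares were 13.1% and 14.0%, to be set beside each list below. NADPH supply had 11 of 14 detected in both, with Mthfd1 of the folate cycle at 56.8 and 61.0 TPM, Idh2 at 45.8 and 50.1 TPM and G6pdx, the entry to the pentose phosphate route, at 33.8 and 39.0 TPM. Among the 11 detected in either library, 0 were over 2-fold higher in replicate 1 and 2 in replicate 2.

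Nrf2 partners and regulators had 13 of 15 detected in both. Nfe2, the erythroid relative of Nrf2, stood at 71.4 and 78.1 TPM, above Nfe2l2 in both libraries, and Cul3, the ligase scaffold that works with Keap1, at 33.6 and 32.7 TPM. Nfe2l1, another relative, stood at 34.1 and 27.2 TPM. A further list of Nrf2 targets had 14 of 20 detected in both, led by the ferritin chains Ftl1, at 292 and 308 TPM, and Fth1, at 260 and 230 TPM, and by Tkt of the pentose phosphate route at 77.2 and 96.5 TPM. Of the 14 partners detected in either library, 1 was over 2-fold higher in replicate 1 and 0 in replicate 2. Of the 15 targets so detected these were 2 and 1.

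Cysteine supply and glutathione turnover had 8 of 18 genes detected in both libraries, a share near the 45.5% of all nuclear protein-coding genes, and 13 of 18 in replicate 2. The glutamine transporter Slc1a5 stood at 50.9 and 54.6 TPM and the mitochondrial glutathione carrier Slc25a39 at 29.4 and 50.6 TPM. Slc3a2, the heavy chain of the cystine transporter, stood at 30.6 and 24.2 TPM. Its partner in that transporter, Slc7a11, was below the detection threshold in both, with 0 counts in replicate 1 and 12 counts at 0.2 TPM in replicate 2. Of the 13 genes of this list detected in either library, 1 was over 2-fold higher in replicate 1 and 3 in replicate 2. The remaining glutathione transferases and peroxidases had 9 of 24 detected in both, led by Gstm5 at 25.8 and 15.8 TPM and Gstz1 at 27.0 and 9.48 TPM, with Gstm7 at 17.4 and 1.64 TPM. Of the 14 of these detected in either library, 3 were over 2-fold higher in replicate 1 and 4 in replicate 2, against 13.1% and 14.0% of all such genes.

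Selenocysteine is needed by the glutathione peroxidases Gpx1 to Gpx4 and by the thioredoxin reductases. Its synthesis and insertion genes had 10 of 11 detected in both, with Rpl30, a ribosomal protein that also binds selenocysteine insertion elements, at 202 and 205 TPM, Sars, which charges the tRNA with serine, at 49.5 and 25.5 TPM and Scly, which recycles selenium, at 27.7 and 31.8 TPM. Other selenoproteins had 12 of 15 detected in both, led by Selenow at 75.9 and 66.5 TPM, Selenop at 57.4 and 46.5 TPM and Selenof at 41.1 and 46.9 TPM. Of the 11 synthesis genes detected in either library, 1 was over 2-fold higher in replicate 1 and 3 in replicate 2. Of the 13 other selenoprotein genes so detected these were 1 and 2.

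Methionine sulfoxide repair and disulfide exchange was detected throughout, 19 of 19 genes in both. The disulfide isomerases Pdia3, at 64.7 and 92.3 TPM, and P4hb, at 62.2 and 88.5 TPM, led it, with Txndc5 at 19.5 and 43.3 TPM. Of the regulators of oxidative stress in blood stem cells, 10 of 12 were detected in both, with Trp53 at 192 and 131 TPM, Mapk14 at 59.2 and 59.8 TPM and Park7 at 21.8 and 52.6 TPM. Metal-binding genes had 9 of 11 detected in both, and beside the ferritin chains Mt1, a metallothionein, stood at 119 and 99.3 TPM. Among genes detected in either library, over 2-fold differences toward replicate 1 and replicate 2 numbered 5 and 3 of 19 in the disulfide list. They numbered 0 and 1 of 11 among the regulators and 0 and 3 of 9 among the metal-binding genes.

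**Figure D4:**
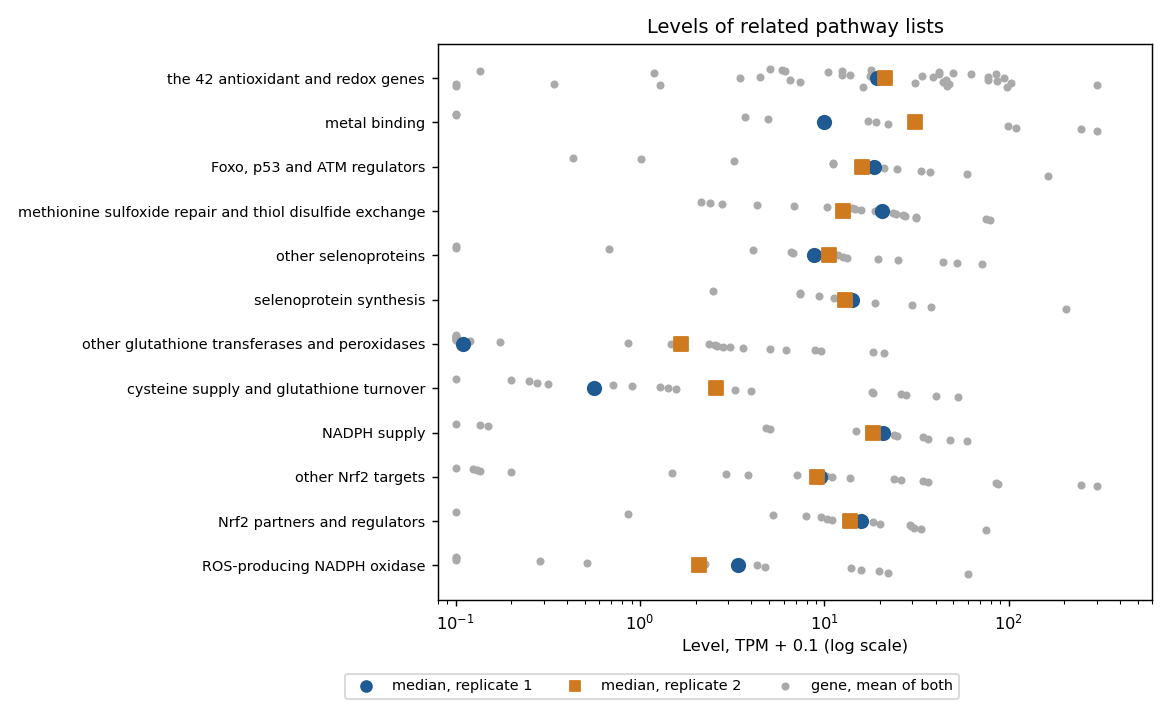
Levels of the 42 genes and of the 11 related lists as TPM + 0.1 on a log axis, with the mean of both libraries for each gene and the median of each list in replicate 1 and replicate 2. The median of the 42 genes, 19.1 and 21.1 TPM, lies above those of the transferase list and the cysteine and glutathione turnover list in both libraries.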

How the data were processed

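Total RNA-seq libraries were quantified by the authors per gene and per transcript, on mm10 and GENCODE M4 according to the notes deposited beside the tables. The columns follow RSEM per the file headers, and for the aligner, versions and sort gates nothing was at hand. Deposited estimated counts, TPM, FPKM and the transcript share in percent were used as they stood. The deposited TPM bounds, a signal that is never negative, and effective lengths were also read. Symbols, biotypes and coordinates came from GENCODE M21 (GRCm38). Rows that name no gene held 0.0120% and 0.00719% of counts and were left out. The rule named all members, the 3 genes of highest mean TPM in each related list, and both genes of each ratio. A gene that the rule would name and a neighbouring gene are not reported here. Members and lists were chosen with earlier results of these data known. Other genes named (single markers of cells other than HSC, Slc7a11, Gstp2, Gm12669 and overlapping neighbours) were chosen after their values were seen.

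Differences are log2(TPM + 1) in replicate 1 minus replicate 2, and ratios used TPM + 0.1. With 1 group of 2 libraries no test was made, and the smallest two-sided exact sign-flip p would be 0.5. Limits for a count of 0 are 3 counts and cover counting error only. Alternatives were pseudocounts, posterior mean TPM, FPKM, TPM rescaled to coding genes, CPM scaled by TMM in edgeR 4.0.16 or by size factors in DESeq2 1.42.0 (R 4.3.3), other filters, and coding transcripts alone. Other steps used Python 3.11.15, numpy 2.4.6, pandas 2.3.3 and matplotlib 3.10.9. Of these, only the detection, fold and median steps were tested on simulated gene counts.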

Additional observations from a re-analysis of the deposited data

How the results depend on the processing

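The number of genes detected in both libraries stayed within 31 to 37 under the other thresholds and units, with 38 detected by replicate 2 and 36 by replicate 1 alone. Genes over 2-fold higher in replicate 1 fell from 1 to 0 with CPM scaled by TMM or DESeq2, at a mean of at least 10 TPM, and on coding transcripts alone, an alternative chosen after seeing the data. Genes over 2-fold higher in replicate 2 were 4 with a pseudocount of 0.1 or rescaled TPM, and 1 with posterior mean TPM, FPKM, CPM scaled by TMM or DESeq2, a mean of at least 10 TPM, or coding transcripts alone. The median level of 20.1 TPM became 29.6 over genes detected in both libraries alone, 12.95 in FPKM and 71.5 in rescaled TPM. The log2 difference of Prdx1 reversed to 0.070 with TMM and 0.055 with DESeq2, units without gene length. Of 48 recomputed ratios 4 moved beyond their spread, each with another pseudocount or posterior mean TPM. A ratio left to a single replicate lies within the SD by construction, so it could not move. Nor could it reverse where both libraries shared a sign. Ratios were not recomputed on coding transcripts alone or without gene length. The log2 ratio of Txnrd1 to Txnrd2, whose sign differed between the libraries, was -0.02 over both and 0.07 without replicate 2, and 0 of the ratios with the same sign in both libraries reversed. Leaving out a replicate gives no fold between libraries, so those counts could not be recomputed. With 2 libraries of 100 cells the SD rests on 1 difference, and levels under a few TPM rest on few counts.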
